A study of Mus musculus with 16 samples.

Results

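CD4 T cells of mice that had been kept in the cytokine IL-7 were compared with the same kind of cells after a further stage in Th17 polarizing conditions. The comparison rests on 8 of the 16 RNA libraries of the series, 4 per group, all from cells that had not received tamoxifen and are labelled Sin3A sufficient. Its members were chosen by their labels: the libraries BASAL955, BASAL957, BASAL959 and BASAL960 (6 days in IL-7) and D3955, D3957, D3959 and D3960 (6 days in IL-7, then 3 days of polarization). Values for the libraries are given below in that order. The table has 17850 rows, of which 14899 were tested, and 6910 of these carried a gene name.

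Both groups came from C57BL/6 J mice of the genotype Rosa26-CreERT2 +/- Sin3AF/F, aged 2 months. Each group therefore carried the drug-inducible Cre recombinase and the floxed alleles of Sin3a, a corepressor scaffold, without the drug. The labels give BASAL959 and D3959 as from female and the other 6 libraries as from male animals. They do not name the cytokines or the stimulus of the polarizing medium, and no library was labelled as kept for the same total time in IL-7, so polarization, stimulation and the 3 further days in culture cannot be told apart. The labels do not say that libraries of a group came from separate mice, and p-values then measure the spread between these libraries, which may be partly technical.

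Th17 cells are the helper T cells that make IL-17A, IL-17F, IL-21 and IL-22 and that defend mucosal surfaces against bacteria and fungi. Naive T cells become Th17 cells when their antigen receptor is engaged in the presence of TGF-β and of cytokines such as IL-6 that signal through STAT3. IL-7 alone keeps T cells alive in a resting state without driving division. A switch to aerobic glycolysis and entry into the cell cycle are known to go with T cell activation.

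Gene names bear on every list below. The authors' table names only genes that are lower in Sin3A-deficient Th17 cells, a comparison that shares the 4 Th17 libraries with this one. Named genes are thus a selected set: 40.6% of the 6910 were higher in Th17 cells and 32.8% lower at a limma adjusted p under 0.05, against 31.5% and 41.6% of the 7989 rows without a name. Over all 14899 rows these shares were 35.7% and 37.5%. With a change of 2-fold or more in addition, they were 24.9% and 15.5% of named genes and 19.7% and 19% of all rows. Members of a list that are not named could not be examined, and a list count near these background shares is no result about the list.

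The libraries held 19744374 to 28601000 restored reads. The labels were checked against CD4 T cell genes: Cd4, Cd3e and Ptprc (CD45) were present in all 8 libraries, at 12026, 12179 and 36984 normalized counts on average in IL-7 cells and at 8003, 7378 and 19029 in Th17 cells. Sin3a went from 2524 ± 249 to 2106 ± 181 normalized counts (± SD over 4 libraries, as throughout), a log2 change of -0.26 (limma adjusted p = 0.0286). This call was lost in 9 of up to 25 alternatives, among them the leaving out of BASAL955, BASAL960, D3955 or D3960.

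The library BASAL960 stood apart within the IL-7 group. In 58.0% of the rows called in this comparison it was the IL-7 library nearest to the Th17 mean, and 670 rows lay more than 1 log2 unit from the group mean in it, against 163 to 274 in the other IL-7 libraries. Without BASAL960 the counts of calls differed in 16 of the 53 lists with a tested member, by at most 3 genes. Among the Th17 libraries D3955 deviated in the most rows, 457 against 181 to 373. The median member of several lists lay nearer to the IL-7 mean in D3955 than in the other Th17 libraries. It lay at -0.04 against 0.56 to 1.18 log2 units for activation genes and at -0.09 against 0.60 to 1.03 for regulatory T cell genes. For Th2 genes it was 0.59 against 1.72 to 1.79, and for costimulatory and inhibitory receptors 0.09 against 0.59 to 0.78. Further such lists were those of the TGF-β pathway (0.46 against 0.66 to 1.22), cell death (0.08 against 0.31 to 0.52) and cholesterol (-0.12 against 0.30 to 0.51). Other lists went the other way, such as naive genes (-1.92 against -1.77 to -1.46). Each value is also subject to how it was read: the table had lost its decimal points, so a read number divisible by 10 could be taken for one 10 times smaller. The choice rested on the other libraries of the group and on the level in the Sin3A-deficient group of the same stage. For Th17 values of named genes it also rested on the authors' fold change. That choice is least sure where a library deviates from its group, as BASAL960 did.

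Markers of other cell types were mostly low. Of 10 B cell markers 2 were tested: Cd79a lay at 80.2 to 145 normalized counts in IL-7 and 25.6 to 47.4 in Th17 libraries, and Cd79b at 28.0 to 114 and 10.2 to 26.0. Cd22 and Faim3, of the same list, were not settled and so not tested. As read, Cd22 lay at 15.1 to 48.2 and 0.988 to 14.7. Faim3 went the other way, at 19.5 to 105 in IL-7 and 268 to 369 in Th17 libraries. The CD8 chain gene Cd8b1 lay at 331 to 534 and 150.3 to 175. Its partner Cd8a lay at 28.0 to 104 and 60.2 to 344. Ccl5, on the CD8 list and not settled, lay as read at 93.0 to 550 and 122 to 244. The macrophage markers Cd68 and Fcgr3 stayed at 175 or lower and the dendritic cell markers Flt3 and Xcr1 at 37.8 or lower. The class II genes H2-Ab1 and Cd74, also on the dendritic cell list, were not settled and so not tested. As read they lay at 54.9 to 750 and 41.3 to 2894 in IL-7 and at 1060 to 2120 and 940.2 to 2006 in Th17 libraries. Markers that T cell subsets also express moved more: Pecam1 (CD31) went from 6286 to 7392 in IL-7 to 1224 to 1521 in Th17 libraries, Zbtb16 (PLZF, of innate-like T cells) from 96.8 to 214 to 317 to 1430, and Kit from 221 to 640 to 90.9 to 208. The other tested gamma-delta T cell marker, Sox13, went the other way, from 49.1 to 267 to 17.4 to 50.8. No natural killer cell, neutrophil or platelet marker was joined to a row. The part of these cells in the results was not tested, and in bulk RNA fewer cells of a type and less RNA per cell cannot be told apart.

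The signature cytokine genes went from a few reads to large numbers. Il17a (ENSMUSG00000025929) stood at 4.30, 3.12, 0 and 4.23 normalized counts in the IL-7 libraries and at 1072, 2275, 2953 and 3929 in the Th17 libraries, and no library of one group came near the other (log2 change 9.46, SE 0.55, limma adjusted p = 1.32e-07). The Il17f gene (ENSMUSG00000041872) was measured at 13.99, 14.8, 29.5 and 38.9 normalized counts in IL-7 cells. In Th17 cells it reached 20569.7, 26033, 35932 and 29471 (log2 change 10.21, SE 0.30, limma adjusted p = 2.08e-09). IL-17F pairs with IL-17A and acts through the same receptor. The follicular helper and Th17 cytokine gene Il21 (ENSMUSG00000027718) stood at 2.15, 3.12, 1.69 and 9.30 normalized counts in the IL-7 libraries and at 4929, 5361, 6134 and 6089 in the Th17 libraries (log2 change 10.33, SE 0.35, limma adjusted p = 4.23e-09). For Il22 (ENSMUSG00000074695), whose product acts on epithelial cells, the IL-7 libraries held 0, 0, 0.843 and 22.8, so nearly all of the IL-7 signal lay in BASAL960. The Th17 libraries held 3343, 6909, 9521 and 7920.3 (log2 change 11.29, SE 0.86, limma adjusted p = 8.75e-07). All 4 tested cytokine genes rose, and D3955 was the lowest Th17 library for each of them. With IL-7 means of 2.91 to 24.3 normalized counts, the sizes of these changes depend on the pseudocount of 1. A further member, Il9, was named but its decimal places could not be settled, and it was not tested.

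Among 15 tested regulators and receptors of Th17 cells 11 were higher, 1 was lower and 3 were not called. The list has 28 genes, and its median log2 change was 1.68 against 0.11 over all named genes. It was 0.72 over the rows that met a stricter posterior limit for their reading, a limit chosen after seeing the data. Hif1a (ENSMUSG00000021109), the oxygen-regulated factor that promotes Th17 differentiation, stood at 2568, 2788, 2758 and 3758 normalized counts in the IL-7 libraries and at 12948, 13908, 12886 and 17177 in the Th17 libraries (log2 change 2.27, SE 0.13, limma adjusted p = 1.35e-07). The 2 widest rises from a level above 100 were those of Fosl2, an AP-1 subunit, from 239 ± 30.2 to 10147 ± 1667 (log2 change 5.39, SE 0.13, limma adjusted p = 8.87e-10), and of Bhlhe40, a helix-loop-helix repressor of activated T cells, from 721 ± 468 to 17901 ± 3198 (log2 change 4.81, SE 0.34, limma adjusted p = 5.21e-07). The AP-1 factor gene Batf rose by 1.77, the factor Maf by 1.68, and the nuclear receptor gene Rora by 1.57. The shared chain of the IL-12 and IL-23 receptors, Il12rb1, rose by 2.08. Its IL-7 values of 384, 865, 605 and 227 put BASAL960 lowest.

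Smaller changes were found for the STAT3 inhibitor Socs3 (0.64) and the IL-1 receptor Il1r1 (0.72). The Il1r1 libraries overlapped, at 112, 107, 171 and 209 in IL-7 and 162, 188, 296 and 355 in Th17 cells, and the call was lost in 7 of up to 25 alternatives, among them without BASAL955, BASAL957, D3959 or D3960. Runx1, a factor of the T cell lineage, fell by 0.86 on the log2 scale (2022 ± 177 to 1117 ± 93.1 normalized counts). Cd5l, whose product restrains the pathogenic functions of Th17 cells, was at 0, 0, 0 and 3.38 in IL-7 and 32.6, 57.3, 102 and 18.1 in Th17 cells. The NF-κB regulator Nfkbiz (0.06, 95% interval -0.64 to 0.77), the Ikaros family gene Ikzf3 (-0.19, -0.57 to 0.18) and Podxl (-0.26, -1.27 to 0.74) were not called. Named but not settled, and so not tested, were Stat3, Il23r, Il1r2 and Batf3. The plot of these genes by library shows the gap between the groups for the cytokines and its narrowing along the regulators.

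**Figure D1:**
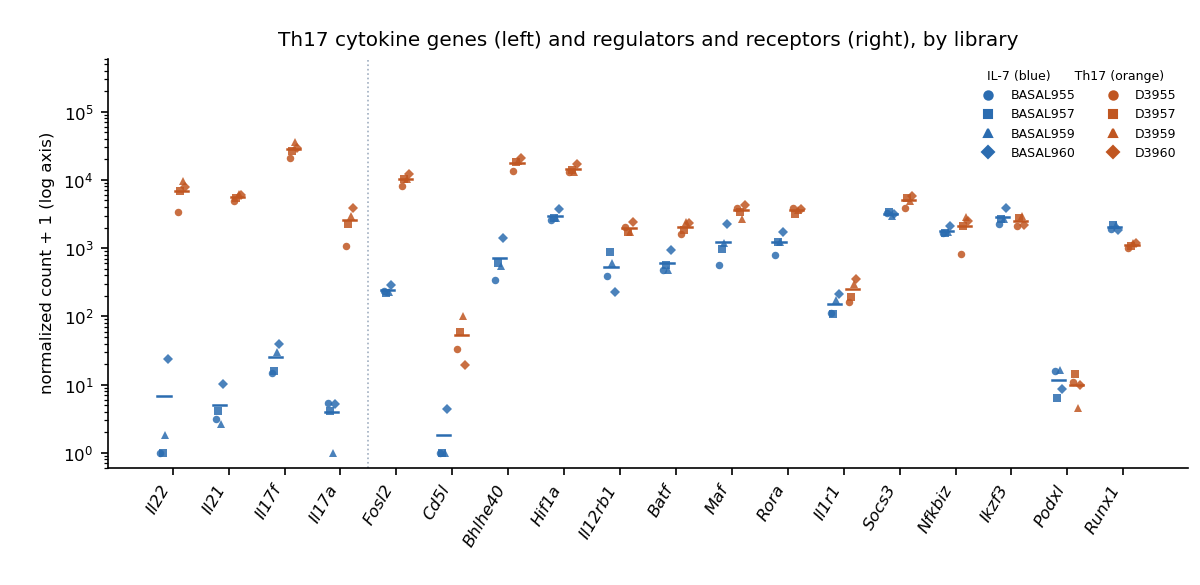
Normalized counts + 1 on a log axis for the 4 tested Th17 cytokine genes and the 14 of the 15 tested regulators and receptors, 1 point per library, with a bar at each group mean (blue, IL-7; orange, Th17). The cytokine genes lie at 38.9 normalized counts or lower in every IL-7 library and at 1072 or higher in every Th17 library, and the groups overlap for Il1r1, Nfkbiz, Ikzf3 and Podxl.

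Genes of the TGF-β pathway moved in both directions. Of 10 tested members 5 rose and 1 fell, with 4 not called. Tgfbr2, the ligand-binding receptor, stood at 5651, 4887, 5087 and 4829 normalized counts in the IL-7 libraries and at 1417, 1035, 948 and 1032 in the Th17 libraries (log2 change -2.22, SE 0.12, limma adjusted p = 8.97e-08). The ligand gene Tgfb1 rose by 1.34 (from 2567 ± 229 to 6557 ± 1165), and Furin, the protease that cleaves its precursor, by 1.37. Itgav, an integrin chain that releases latent TGF-β, rose by 1.58. Smad6, an inhibitory Smad that TGF-β family signals induce, was at 0, 0.779, 0.843 and 0 in IL-7 and 23.7, 25.6, 22.6 and 19.2 in Th17 cells. Smad3, a signal transducer of the pathway, stood at -0.24 (95% interval -0.48 to 0.00). Both tested targets of the aryl hydrocarbon receptor rose, Ahrr by 2.74 and Tiparp by 2.35.

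Genes of other helper lineages did not share 1 direction. Gata3, the Th2 master factor, stood at 992, 949, 973 and 1278 normalized counts in the IL-7 libraries and at 198, 316, 329 and 339.7 in the Th17 libraries (log2 change -1.84, SE 0.18, limma adjusted p = 4.15e-06). The Th2 cytokine gene Il13 rose, from 129 ± 124 to 686 ± 337 (log2 change 2.55, SE 0.60, limma adjusted p = 0.0027), as did the chemokine receptor gene Ccr4 (3.25) and, by less, Stat6 (0.41). Of 7 tested Th1 and cytotoxic genes 4 fell and 2 rose, with log2 changes from -3.07 to 3.10. Among them Cxcr3 fell from 612 ± 189 to 77.8 ± 44.6 (-3.07) and Stat4, which relays IL-12, fell by 1.76 on the log2 scale. The IL-18 receptor genes Il18r1 and Il18rap changed by -1.09 and -0.80. The latter call was lost in 6 of up to 25 alternatives, among them without BASAL957, BASAL960, D3955 or D3959. Runx3, a Th1 and CD8 lineage factor, rose by 1.48, while Tnf was not called (-0.52, -1.21 to 0.17). In the regulatory T cell list the inhibitory receptor gene Ctla4 rose from 675 ± 98.2 to 14385 ± 1579.8 (log2 change 4.42, SE 0.11, limma adjusted p = 9.81e-10) and Tnfrsf18 (GITR) by 1.34. Ikzf2 (-0.44), Itgae (0.64) and Lrrc32 (-0.30) were not called, although Itgae and Ikzf2 each passed in some alternatives. Of the follicular helper genes Cd40lg (-1.29), Sh2d1a (-1.18) and Btla (-0.44) fell and Bcl6 (0.60) rose, and Ascl2 was at 2.15, 4.67, 2.53 and 2.54 and 29.6, 18.4, 23.5 and 19.2. The Btla call was lost without BASAL957 and D3957.

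The resting program of the IL-7 cells was lower after polarization. Of 13 tested genes of naive and quiescent T cells 11 fell and 0 rose, with a median log2 change of -1.66. S1pr1, the receptor that lets T cells leave lymph nodes, stood at 18579.9, 15549.8, 17130.4 and 11579 normalized counts in the IL-7 libraries and at 3722, 2642, 2554 and 2914 in the Th17 libraries (log2 change -2.40, SE 0.16, limma adjusted p = 2.96e-07), and the groups did not overlap. Il7r, the receptor for the cytokine the cells had been kept in, fell from 12207 ± 3696 to 4786 ± 1102 (-1.32). Nsg2 (-3.37) and Pik3ip1 (-2.83), an inhibitor of PI3-kinase, fell further than Il7r. The 2 others were not called: Satb1, a chromatin organizer, at 0.05 (95% interval -0.24 to 0.35) and Btg1, an antiproliferative gene, at -0.21 (-0.51 to 0.09). All 7 tested GIMAP genes, GTPases that lymphocytes need for survival, fell, with log2 changes from -0.80 (Gimap1) to -2.56 (Gimap6). Gimap3 stood at 27256, 26372, 27735 and 18690.4 normalized counts in the IL-7 libraries and at 5209, 4621, 4509 and 6624 in the Th17 libraries. The GIMAP genes are a cluster of related sequences, and reads shared between copies could not be told apart here.

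Receptors for homing changed in both directions, with 6 of 17 tested members higher and 9 lower. Ccr9, the gut homing receptor, fell from 293 ± 36.3 to 6.96 ± 2.43 (-5.25), and Icam2 (-2.97), Ccr2 (-2.75) and the oxysterol receptor gene Gpr183 (-2.29) fell as well. Cxcr4 rose from 577 ± 103 to 3346 ± 197 (2.55), beside Ccr4. The eosinophil-type chemokine receptor gene Ccr3 was at 3.23, 0, 0.843 and 3.38 and 37.5, 27.6, 30.4 and 14.7. Integrin Itgb1 was not called, at -0.03 (95% interval -0.29 to 0.24).

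Genes of the T cell receptor and its signalling were mostly lower by less than 2-fold. Of 18 tested members 11 fell, 3 of them by 2-fold or more, and 4 rose. The ζ chain gene Cd247 (-1.59) and the adaptor gene Sla (-1.17) fell by more than 2-fold, and Cd3e (-0.72), Cd3d (-0.52), Cd4 (-0.58) and Lck (-0.54) fell by less. Malt1, the paracaspase that carries the receptor signal to NF-κB, stood at 2637, 2203, 2214 and 1947 normalized counts in the IL-7 libraries and at 17708, 24976, 26222 and 25748 in the Th17 libraries (log2 change 3.38, SE 0.14, limma adjusted p = 1.26e-08). The gene of the phosphatase SHP-1, Ptpn6, rose from 2411 ± 384 to 4807 ± 633. Zap70 (0.00, -0.24 to 0.24), Themis (0.15) and Thy1 (-0.07, -0.30 to 0.17) were not called. Among immediate early and NF-κB genes 8 of 16 rose: Gadd45b (3.15), Junb (2.81), Gadd45g (2.50) and the NF-κB inhibitor gene Tnfaip3 (2.48) beside Fosl2. Another AP-1 gene, Jund, fell by 1.23 on the log2 scale, and the MAP kinase phosphatase gene Dusp10 fell by 2.14. Fos was not called (-0.42, 95% interval -1.67 to 0.83).

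Costimulatory and inhibitory receptor genes split as well, 7 of 12 higher and 5 lower. Lag3 rose from 46.0 ± 43.9 to 766 ± 194 (4.37), Tnfrsf9 (4-1BB) by 3.18 and Tnfrsf4 (OX40) by 2.80. Cd27, a receptor of the same TNF family, went the other way, from 7522 ± 2506 to 625 ± 132 (log2 change -3.53, SE 0.25, limma adjusted p = 5.33e-07). In the list of cytokine receptors and JAK-STAT feedback, 11 of 27 rose and 14 fell. The count of rises lies near the share of all named genes, 40.6%. Jak3, the kinase of the common γ chain, rose from 2186 ± 915 to 16806 ± 3674 (3.00), and Il2rb by 1.36. Receptor genes for IL-10 and interferon-γ fell, among them Il10ra (-1.74), Il10rb (-1.72) and Ifngr1 (-1.49), and so did the feedback inhibitor Socs1 (-1.51). Ifngr2 (0.15) and Pim2 (0.09) were not called. The feedback gene Cish (1.01) and the kinase gene Pim3 (1.42) rose, whereas Pim1 fell (-0.96).

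Interferon-induced genes, which encode antiviral proteins, were lower in Th17 cells. Of 18 tested members of a 64-gene list 15 fell, 13 of them by 2-fold or more, and 0 rose. Pyhin1, a member of the interferon-inducible HIN-200 family, had the widest fall of any named gene under the naming rule. It stood at 4572, 4794, 4496 and 7914 normalized counts in the IL-7 libraries and at 22.7, 19.4, 5.22 and 39.5 in the Th17 libraries (log2 change -8.14, SE 0.46, limma adjusted p = 1.18e-07). Xaf1 (-4.84), Epsti1 (-4.06), Ifit2 (-3.38) and the RNA sensor gene Ddx58 (RIG-I, -2.41) fell with it. Ifi27l2a (-0.58), Dhx58 (-0.82) and Lgals3bp (-0.67) were not called. The spread of this list within the IL-7 group was wide: the median member lay 0.95 log2 units above the IL-7 mean in BASAL960 and at -0.45, -0.08 and -0.49 in the other IL-7 libraries. The Th17 libraries lay between -2.63 and -2.16. Without BASAL960 the count of falls was again 15, and the median went from -2.31 to -2.10.

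Class I antigen presentation fell with them, in 10 of 12 tested genes. H2-K1, a classical class I heavy chain, went from 91471 ± 13101 to 27108 ± 4921 normalized counts (-1.76), H2-D1 from 62232 ± 7200.1 to 24304 ± 3192 (-1.36), and B2m, the light chain, from 68847 ± 23818 to 26725 ± 2334 (-1.31). The nonclassical genes H2-Q6 (-3.94), H2-T10 (-2.79) and H2-Q4 (-2.54) fell further. Class I genes are near copies of each other, so the split of reads between them is uncertain. The 2 members that rose, Canx (1.63) and Pdia3 (0.98), encode general folding factors of the endoplasmic reticulum.

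Promoter sequence was examined for this list because interferon-regulated promoters are known to carry the element GAAANNGAA. Windows from RefSeq (build GRCm38.p6), reaching 250 bases before to 50 after an annotated start, were found for 9 of the 18 tested members. The motif, on either strand, was in 4 of 12 windows (33.3%), which belong to 3 of these 9 genes. It was in 8.56% of all 32851 windows and in 7.04% of the windows of tested named genes. The 3 genes with the motif fell, as did 15 of all 18 tested members. A link between the motif and the fall was not tested. One example is Trim30a (-3.09), shown over the 100 bases before its start (chr7:104465194-104465293, minus strand), with the match in capitals.
Trim30a: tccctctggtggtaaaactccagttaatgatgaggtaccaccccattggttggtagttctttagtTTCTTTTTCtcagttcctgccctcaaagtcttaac

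Glycolysis showed the opposite course. Of 20 tested genes of glycolysis and lactate handling 18 rose, each by 2-fold or more, and 2 fell, with a median of 2.39. Tpi1 (triosephosphate isomerase) stood at 975, 1182, 873 and 1905 normalized counts in the IL-7 libraries and at 25409, 26043, 27429.6 and 25556 in the Th17 libraries (log2 change 4.47, SE 0.20, limma adjusted p = 2.27e-08). The glucose transporter gene Slc2a1 rose from 1073 ± 33.1 to 6894 ± 947 (2.67), Pgk1 from 1327 ± 371 to 17119.7 ± 1588 (3.72), and Ldha, which turns pyruvate into lactate, from 7540.1 ± 1444 to 47309.9 ± 3649.6 (2.66). The genes of the steps in between rose too, with Pfkp (2.11), Aldoa (2.73), Gapdh (3.21), Pgam1 (3.59), Eno1 (1.99) and Pkm (2.74). Isozymes of 2 steps went apart: the enolase Eno3 fell by 1.32 on the log2 scale while Eno2 rose by 2.93, and Pfkfb4 fell by 1.07 while Pfkfb3 rose by 1.81. Hk2 and Slc16a3 were named but not settled.

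Genes of the hypoxia response rose with glycolysis. Of 31 tested genes 24 rose, 3 fell and 4 were not called, with a median of 2.27. Egln3, a prolyl hydroxylase that HIF induces and that in turn marks HIF for destruction, stood at 69.9, 99.7, 121 and 143 normalized counts in the IL-7 libraries and at 11241, 10487, 10518 and 10648 in the Th17 libraries (log2 change 6.66, SE 0.18, limma adjusted p = 1.08e-09). The 4 Th17 libraries of Egln3 lay close together and far above every IL-7 library. Ak4, an adenylate kinase of mitochondria, stood at 2.15, 3.12, 3.37 and 14.4 normalized counts in the IL-7 libraries and at 1177, 1014, 978 and 1062 in the Th17 libraries (7.60), Plod2, a collagen lysyl hydroxylase, rose by 6.33, the angiogenic factor gene Vegfa by 6.09 and the mitophagy gene Bnip3 by 5.24. The falls were Epas1, which encodes the related HIF subunit HIF-2α (321 ± 59.3 to 13.2 ± 2.32, -4.50), Pdk1, the kinase that holds back pyruvate dehydrogenase (9718 ± 852 to 4023 ± 388, -1.27), and Egln2 (-0.94). Arnt (0.10, -0.15 to 0.34), Kdm3a (0.17), Kdm4c (0.09) and Plod1 (-0.22) were not called. The medium's oxygen level is not given in the labels.

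Promoters of both lists were searched for ACGTG, the core of the HIF response element, on both strands. Among hypoxia genes 19 of the 25 with a window held it, 54.1% of their 37 windows, and among glycolysis genes 10 of 19, 40.6% of 32 windows. The share was 19.6% of all windows and 25.7% of the 5725 windows of tested named genes. The 10 glycolysis genes with the motif all rose, as did 17 of the 19 hypoxia genes. Of all tested members, with or without the motif, 18 of 20 and 24 of 31 rose. A link between the motif and the rise was not tested. The stretches of 100 bases printed here lie within 250 bases upstream of an annotated start. They belong to the genes of widest change whose outermost window held the motif before the start, with some genes passed over. Passed over were genes whose stretch overlapped an annotated exon on the same strand, or whose window lay on a chromosome left out of the printing. The genes are Egln3 (chr12:54204024-54204123, minus strand), Bnip3 (chr7:138909535-138909634, minus strand), Ddit4 (chr10:59951878-59951977, minus strand), an inhibitor of mTORC1 that rose by 4.03, Pgk1 (chrX:106186930-106187029, plus strand) and Pgam1 (chr19:41911737-41911836, plus strand). Capitals mark the motif on either strand, and a run of 6 capitals is a match on both strands at once. For 6 of the 8 printed genes, the mitotic and interferon examples included, the bases after the RefSeq start also lay in an annotated Gencode transcript of the gene. A match of these letters is a description of the sequence.
Egln3: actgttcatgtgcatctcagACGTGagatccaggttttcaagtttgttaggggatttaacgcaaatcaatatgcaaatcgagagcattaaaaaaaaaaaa
Bnip3: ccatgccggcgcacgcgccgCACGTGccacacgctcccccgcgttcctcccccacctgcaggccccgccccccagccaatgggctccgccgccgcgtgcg
Ddit4: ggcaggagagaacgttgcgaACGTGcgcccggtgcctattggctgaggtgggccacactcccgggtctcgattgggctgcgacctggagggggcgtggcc
Pgk1: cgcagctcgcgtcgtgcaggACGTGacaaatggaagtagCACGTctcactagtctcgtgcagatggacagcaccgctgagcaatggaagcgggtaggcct
Pgam1: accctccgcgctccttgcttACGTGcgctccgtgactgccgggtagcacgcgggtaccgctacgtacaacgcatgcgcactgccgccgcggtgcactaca

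Other metabolic lists rose by less and less evenly. All 5 tested genes of the pentose phosphate path and NADPH supply rose, led among those above 100 normalized counts by Tkt, transketolase (1.41, from 4016 ± 536 to 10652 ± 742). Asns, asparagine synthetase, an ATF4 target, went from 11.8, 19.5, 10.96 and 71.9 normalized counts in the IL-7 libraries to 1656, 1439.8, 1763 and 2299.7 in the Th17 libraries (log2 change 6.33, SE 0.48, limma adjusted p = 8.00e-07). The amino acid stress list had 10 of 13 higher. The cystine transporter gene Slc7a11 was at 0, 7.01, 2.53 and 19.4 and 66.2, 77.7, 53.9 and 54.2, the cationic amino acid transporter Slc7a3 rose by 2.04, and Atf4 itself rose by 0.88. Slc7a7 (-0.73) and Trib3 (-0.53), also an ATF4 target, fell, the latter with a call lost in 7 of up to 25 alternatives, among them without BASAL955, BASAL957, BASAL959 or D3955. Slc43a1 was not called (0.67). In one-carbon metabolism all 3 tested genes rose, led by the mitochondrial enzyme Aldh1l2, whose Th17 values of 160, 135, 130.4 and 466 put D3960 far above the others. Gls2, which releases glutamate from glutamine, rose from 17.9 ± 8.26 to 847 ± 89.3 (5.63).

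Nucleotide synthesis genes rose in 6 of 9 cases, with the thymidine kinase gene Tk1 (2.72) and the ribonucleotide reductase subunit Rrm1 (2.69) widest. The alternative small subunit Rrm2b, a p53 target, fell by 1.12 on the log2 scale, and Ctps2 also fell (-0.69). Of the lipid genes Scd2, a stearoyl-CoA desaturase, rose from 1878 ± 1220.1 to 31493 ± 2775 (4.25). Fatty acid genes rose in 9 of 11 cases and Elovl5 fell (-1.16). Of the cholesterol list 8 of 19 were higher and 5 lower, and without BASAL960 11 were higher. The counts of 8 and 5 lie near or below the shares of all named genes, 40.6% higher and 32.8% lower. The ends of that list were Mylip, a ubiquitin ligase gene that LXR induces (-3.85), and Pmvk of the mevalonate path (1.67). Nr1h3 (LXRα, -1.85) also fell. The sterol element CACCCCAC was in 1 of 21 windows of the list (4.76%), against 2.87% of all windows.

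Mitochondrial genes changed by less. In the citrate cycle 5 of 7 tested genes were not called, among them Sdha at 0.03 (95% interval -0.15 to 0.20) and Idh3b at 0.01 (-0.13 to 0.15). Complex I subunits rose in 15 of 20 cases with a median of 0.29, and the count ran from 8 to 16 when libraries were left out. It was 8 without BASAL959 and D3959 and 10 without BASAL957 and D3957. Ndufc2 (1.24) and Ndufv3 (1.04) rose most and Ndufs7 fell (-0.32). The other complexes rose in 10 of 12 cases, led by Uqcrq (1.30) and the ATP synthase β subunit Atp5b (1.29), while Atp5e (0.07) and Atp5l (-0.18) were not called.

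The protein-making machinery separated into parts. Cytosolic ribosomal protein genes stood nearly level: of 74 tested, 26 rose, 17 fell and 31 were not called, with a median of 0.10 and a range from -1.25 (Rps27) to 1.21 (Rpl22l1). These shares lie near or below the background, and when libraries were left out the rises ran from 17 to 29 and the falls from 11 to 18, the rises being fewest without BASAL959 and D3959 and the falls without the pair BASAL955 and D3955 or the pair BASAL957 and D3957. Ribosomal protein genes have many processed copies, so single values such as that of Rpl24 (86.4 in IL-7 cells) are uncertain. All 7 tested aminoacyl-tRNA synthetase genes rose, from 0.62 (Sars) to 1.58 (Aars). Translation factors rose in 9 of 12 cases, led by Eif2s2 (1.54), Eif5a (1.35) and Eif2b3 (1.17). All 5 tested proteasome genes rose, with Psmd8 (1.19) first. Of the genes of folding in the endoplasmic reticulum 12 of 15 rose, with the disulfide isomerases Pdia6 (2.38) and P4hb (2.26) and the chaperones Hsp90b1 (1.76) and Hspa5, or BiP (1.41). Herpud1 (-0.62) and Dnajc3 (-0.61) fell, and Edem1 was not called (0.17). Npm1, the abundant nucleolar protein, rose by 1.37 among only 4 tested genes of ribosome biogenesis, of 61 in the list.

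Cell division genes rose nearly throughout. Of 27 tested mitotic genes 25 were higher, 23 of them by 2-fold or more, with a median of 3.04. Bub1, a kinase of the spindle checkpoint, stood at 85.002, 155, 99.5 and 456 normalized counts in the IL-7 libraries and at 2863, 4158, 3789 and 3377 in the Th17 libraries (log2 change 4.48, SE 0.42, limma adjusted p = 3.79e-06). Top2a, the topoisomerase that untangles chromosomes, stood at 788, 1416, 803 and 4106 normalized counts in the IL-7 libraries and at 16572, 19669, 18114 and 15411 in the Th17 libraries (3.65). For both genes BASAL960 was the highest IL-7 library and lay below every Th17 library. Ccnb2 (cyclin B2) rose by 3.99, but its BASAL960 value is in doubt. It was read as 97.2 normalized counts, 0.381 times the median of the other IL-7 libraries, whereas 22 of the 27 mitotic genes were highest in BASAL960 among IL-7 libraries. The alternative reading, 972, gives 3.81 times that median and a log2 change of 3.16, and also lies below every Th17 library. The phosphatase gene Cdc25c rose by 3.88 and the ubiquitin-conjugating enzyme gene Ube2c by 3.78. Pttg1, securin, fell by 0.40 on the log2 scale, and Smc4 was not called (-0.28, 95% interval -0.57 to 0.02). It was called lower without BASAL960, which leaves 2 members lower, and with all 16 libraries in the fit. The median mitotic gene lay 1.01 log2 units above the IL-7 mean in BASAL960, against -0.47 to -0.04 in the other IL-7 libraries, and the Th17 libraries lay at 2.89 to 3.19. Without BASAL960 the median was 3.41. DNA replication genes rose in 8 of 9 cases by less: Orc1, of the origin recognition complex, by 2.78, Mcm3, of the replicative helicase, by 2.46, and E2f2 by 1.81. Pole2, a DNA polymerase ε subunit, fell (-0.49).

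The mitotic promoters were searched for CCAAT, the NF-Y box, and TTTGAA, the cell cycle homology element, on both strands. CCAAT was in 20 of 25 windows (80.0%), against 37.4% of all windows, and TTTGAA in 18 (72.0% against 17.9%). In the windows of tested named genes the shares were 35.2% for CCAAT and 12.3% for TTTGAA. The E2F-type site GCGGGAA was in 3 of 9 windows of the replication list, in 2 of the 7 genes with a window. It was in 4.60% of all windows and in 7.97% of those of tested named genes. Windows were found for 22 of the 27 mitotic genes, and all 17 with CCAAT and all 15 with TTTGAA rose. Of all 27 tested members 25 rose, and a link between either motif and the rise was not tested. The 2 genes here were taken by the rule given for the hypoxia and glycolysis stretches, and each carries the box more than once. They are Ccnb2 (chr9:70421562-70421661, minus strand) and Ube2c (chr2:164769681-164769780, plus strand), with CCAAT on either strand in capitals.
Ccnb2: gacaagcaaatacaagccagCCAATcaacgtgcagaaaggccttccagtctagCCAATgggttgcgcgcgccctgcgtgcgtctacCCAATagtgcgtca
Ube2c: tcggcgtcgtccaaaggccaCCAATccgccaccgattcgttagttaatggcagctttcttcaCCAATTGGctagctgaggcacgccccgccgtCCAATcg

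Genes of cyclins, kinase inhibitors and Rb went both ways. Cdkn1a, which encodes the kinase inhibitor p21, stood at 100.1, 181, 119.7 and 762 normalized counts in the IL-7 libraries and at 8717, 15645, 17509 and 13062 in the Th17 libraries (log2 change 6.03, SE 0.53, limma adjusted p = 2.16e-06). Cdkn2d (p19) rose by 1.65, and the Myc antagonists Mxd1 and Mxi1 by 2.21 and 2.09. Cdkn1c (p57) fell from 79.7 ± 21.1 to 16.3 ± 8.12 (-2.32). Of 11 tested members of this list 8 rose and 3 fell. Cell death genes were mixed, 9 of 14 higher and 4 lower. The survival genes Bcl2, from 23156 ± 1222 to 7359 ± 988 (-1.66), and Mcl1, from 14859 ± 964 to 6179 ± 451 (-1.27), both fell, while Casp6 rose by 2.15. Bcl2l1 (Bcl-xL) stood at 0.87, but its call was lost in 8 of up to 25 alternatives, 6 of which left out a single library (every one but BASAL960 and D3955). When libraries were left out the rises of this list ran from 4 to 9, and were 4 without BASAL957 and D3957 and without BASAL959 and D3959. Bok was at 0, 0.779, 0 and 0 and 17.8, 14.3, 7.83 and 18.1, and Mdm2 was not called (0.14).

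PI3-kinase, FoxO and mTORC1 genes were lower in 11 of 16 cases. The phosphatase gene Inpp4b, which opposes PI3-kinase, fell from 20812 ± 807 to 2119 ± 324 (-3.31), and Phlpp1 (-1.72) and the catalytic subunit gene Pik3cd (-1.37) fell with it. Gatsl3 was the 1 that rose (1.66). In the autophagy and lysosome list 7 of 15 fell and 3 rose, with Tecpr1 (-2.57) and Atp6v0a1 (4.45) at its ends.

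Chromatin genes went both ways. Of the Polycomb and DNA methylation list 7 of 16 rose and 6 fell. These counts lie near the shares of all named genes, 40.6% higher and 32.8% lower, and are no result about the list. The calls of Ezh1 and Suz12, further Polycomb genes, were lost in 18 and 9 of up to 25 alternatives. Ezh2, the histone H3 lysine methyltransferase of Polycomb repressive complex PRC2, stood at 813, 946, 727 and 2102 normalized counts in the IL-7 libraries and at 6459, 6339.9, 5930.3 and 4911 in the Th17 libraries (log2 change 2.50, SE 0.28, limma adjusted p = 1.18e-05), and Phf19 (2.38) and Jarid2 (1.85), accessory to it, rose as well. Cbx7, a reader subunit of the other Polycomb complex, fell from 16822 ± 3504 to 3435 ± 116 (-2.26). Dnmt3a (-0.19, 95% interval -0.40 to 0.01), Dnmt3b (0.09) and Kdm6a (-0.37) were not called. In the Sin3 and histone deacetylase list 5 of 15 rose and 5 fell, again near the shares of all named genes. Hdac7 (2.11) and the 5-methylcytosine oxidase Tet2 (1.65) were higher. The relative of Tet2, Tet1 (-1.33), and the demethylase Kdm5a (-0.71) were lower.

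The position of each library along these groups is shown by the median level of a list in it. Th17 libraries lay on 1 side of all IL-7 libraries for each list in the plot except the ribosomal proteins. In the IL-7 group BASAL960 lay above the other IL-7 libraries for mitosis, glycolysis, replication, folding, class I and interferon lists, and below them for the naive and GIMAP lists. BASAL960 thus lay towards the Th17 side for mitosis, and away from it for class I and interferon genes. The 4 Th17 libraries spread less than the IL-7 libraries for mitosis and interferon genes.

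**Figure D2:**
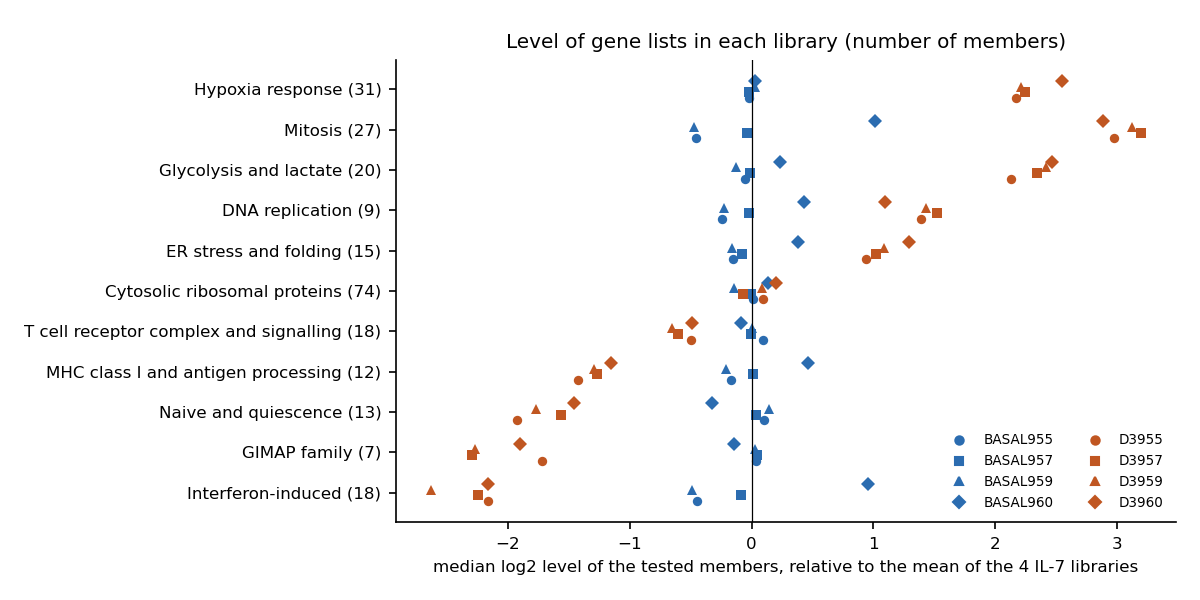
Median log2 level of the tested members of 11 lists in each library (1 point per library, blue for IL-7 and orange for Th17), relative to the mean of the 4 IL-7 libraries for each gene. BASAL960 (blue diamond) lies at 1.01 for mitosis and 0.95 for interferon-induced genes, and the ribosomal proteins are the 1 list whose groups overlap.

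**Figure D3:**
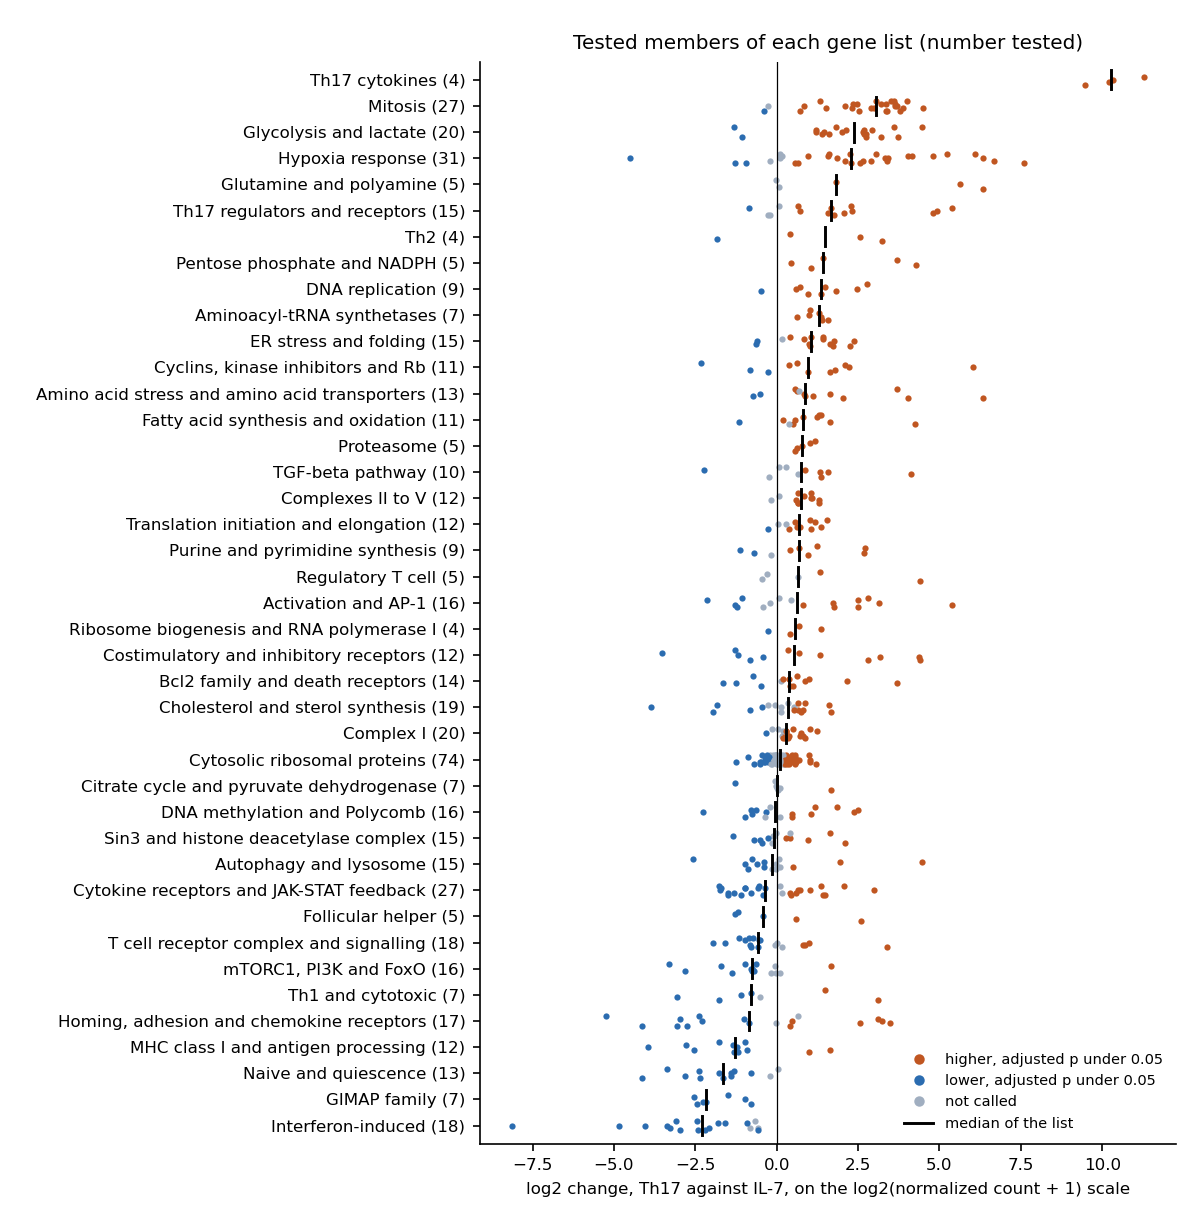
Log2 change of every tested member of the lists with 4 or more tested genes, ordered by the list's median (black bar), with the number tested in parentheses and colour for the call. Most members of the mitosis and glycolysis lists lie right of 0 and most of the interferon, GIMAP and naive lists left of it, while receptors for homing and costimulation lie on both sides.

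Beyond the lists, the 12 widest rises and 12 widest falls among named genes were taken by rule: groups that do not overlap, a mean of at least 50 normalized counts in the higher and at least 5 in the lower group. The rises, beside Il22, Il17f, Ak4, Egln3 and Plod2, began with Mt1, a metallothionein that binds zinc. Mt1 stood at 11.8, 21.0, 27.0 and 80.3 normalized counts in the IL-7 libraries and at 13201, 12999, 13319 and 19319.5 in the Th17 libraries (limma adjusted p = 4.56e-08), with D3960 apart from the other 3 Th17 libraries, which nearly coincided. Procr, the endothelial protein C receptor gene, stood at 4.30, 3.89, 0 and 27.9 normalized counts in the IL-7 libraries and at 2566, 1937, 2131 and 2369 in the Th17 libraries (8.74). Cyp11a1, the enzyme that starts steroid hormone synthesis from cholesterol, stood at 15.1, 18.7, 4.21 and 5.92 normalized counts in the IL-7 libraries and at 2213, 1238, 1255 and 1405 in the Th17 libraries (7.17). The transcriptional repressor gene Scrt1 (6.87), the stress kinase gene Zak (6.85) and the calcium sensor gene Ncs1 (6.42) followed. BASAL960 was the highest IL-7 library for Mt1, Procr, Zak and Ncs1.

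After Pyhin1, the widest fall was that of Pdlim4, a PDZ and LIM domain gene, at 4702, 4674, 4410.5 and 5060.2 normalized counts in the IL-7 libraries and at 11.9, 22.5, 29.6 and 26.0 in the Th17 libraries (log2 change -7.72, SE 0.23, limma adjusted p = 2.32e-09). The receptor gene Tlr12 fell from 512 ± 121 to 5.41 ± 3.88 (-6.54). The sialyltransferase gene St8sia6 (-6.16), Tmem229b (-5.96), Lypd6b (-5.94), Gm12216 (-5.49), the Polycomb-like gene Scml4 (-5.43), Sidt1 (-5.35) and Wfikkn2 (-5.30) were further down. Further antiviral genes, outside the interferon list, were among them, Ddx60 at 615, 727, 645 and 1398 normalized counts in the IL-7 libraries and at 12.8, 23.5, 8.70 and 10.2 in the Th17 libraries (-5.85), and Samd9l (-5.33). For Pyhin1, Ddx60 and Samd9l BASAL960 was the highest library, whereas for Tlr12, St8sia6, Lypd6b and Wfikkn2 it was the lowest of the IL-7 group. All 24 genes passed a limma adjusted p of 0.05 in every alternative in which they were tested.

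Some genes went from no more than 3 reads in each IL-7 library to at least 50 normalized counts in each Th17 library. There were 30 such rows, 17 of them named, and 21 rows ran the other way, of which 0 were named. A name could be joined only to a row with reads in Th17 cells, and named genes are those lower in Sin3A-deficient Th17 cells. The rule of naming thus bears on the 17 and the 0. The 8 named genes with the highest Th17 means were Gm12534, Ermn, Dab2, Pdpn, Gap43, Myo16, 2900011O08Rik and Lum. Pdpn, which encodes the surface glycoprotein podoplanin, held 0 reads in all 4 IL-7 libraries and 1033, 774, 1243 and 620 reads in the Th17 libraries. Against a floor of 3 reads per library it was at least 338-fold higher. Lum, encoding the matrix proteoglycan lumican, also held 0 reads in IL-7 cells and was at least 108-fold higher by the same floor, at 287 ± 117 normalized counts (n = 4). Dab2, an endocytic adaptor, and Gap43, a growth cone protein of neurons, each held 1 read in the 4 IL-7 libraries together. In Th17 cells Dab2 was at 1042 ± 330.1 and Gap43 at 754 ± 132 (n = 4 each). Ermn, a cytoskeletal gene of myelinating cells, held 5 reads in IL-7 cells in all, and 888 to 1385 normalized counts per Th17 library.

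The share of a library's reads taken by a gene shows where the sequenced RNA went. It is not corrected for gene length, so shares are compared here only within a gene. Among named settled genes the largest gain was that of Vim, vimentin, an intermediate filament protein, from 0.0471% ± 0.0169 to 0.503% ± 0.0464 of reads (mean ± SD, n = 4). Gapdh gained next, from 0.0374% ± 0.00993 to 0.346% ± 0.0285, then Pkm, from 0.0405% ± 0.00349 to 0.274% ± 0.00757, the chaperone gene Hsp90ab1, from 0.0907% ± 0.0128 to 0.313% ± 0.0127, Aldoa, from 0.0359% ± 0.00266 to 0.243% ± 0.02002, and the elongation factor gene Eef1a1, from 0.607% ± 0.0499 to 0.803% ± 0.0481. For all 6 the lowest Th17 library lay above the highest IL-7 library. Of the 6, 3 are glycolytic enzymes.

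Of the 6 largest losses 3 were the class I genes H2-K1 (from 0.408% ± 0.0551 to 0.123% ± 0.0209), B2m (from 0.307% ± 0.103 to 0.121% ± 0.00911) and H2-D1 (from 0.278% ± 0.0302 to 0.110% ± 0.0133). The others were Shisa5, a gene of the endoplasmic reticulum (from 0.271% ± 0.0208 to 0.0527% ± 0.00489), Ms4a6b, a membrane protein gene of T cells (from 0.171% ± 0.00894 to 0.0119% ± 0.00426), and mt-Co1, a mitochondrially encoded subunit of cytochrome oxidase (from 0.527% ± 0.0682 to 0.387% ± 0.125). The mt-Co1 groups overlapped, since D3955 took 0.564% and BASAL959 0.441%. For B2m, BASAL960 took 0.458% against 0.236% to 0.288% in the other IL-7 libraries, and the difference between the groups went from -0.185 to -0.135 percentage points without it.

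**Figure D4:**
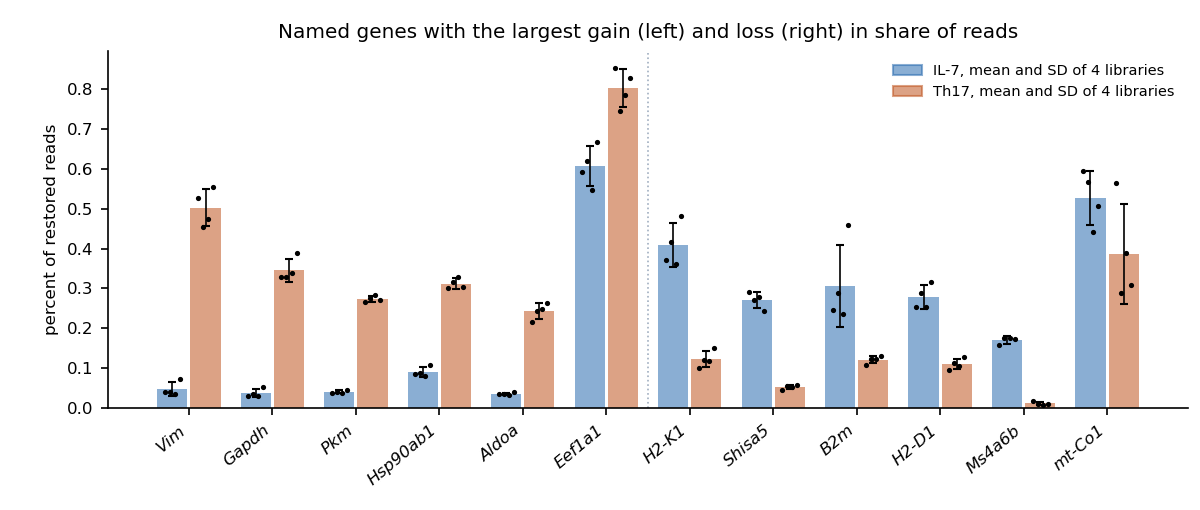
Percent of each library's restored reads taken by the 6 named genes with the largest gain and the 6 with the largest loss (bars, mean of 4 libraries; whiskers, SD; points, libraries). Vim rises to 0.503% of reads and Ms4a6b falls to 0.0119%, and the mt-Co1 points of both groups overlap.

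Across the whole table the comparison was broad. Of 14899 rows 5321 were higher and 5592 lower at a limma adjusted p under 0.05, 2939 and 2834 of them by 2-fold or more, and 695 and 435 by 8-fold or more. All 4 Th17 libraries lay above all 4 IL-7 libraries in 4826 rows and below them in 5169. The median change over all rows was -0.03 and the median size of change 0.76 on the log2 scale. The first principal component of the 8 libraries separated the groups and held 86.0% of the variance. At the other end, 2259 rows, 950 of them named, had a 95% interval of the change within 0.5 log2 units of 0, among them Zap70, Thy1, Satb1, Smad3, Sdha and Itgb1 described above. Among named genes 462 rose and 124 fell by 8-fold or more. The rule by which genes were named bears on these 2 counts.

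**Figure D5:**
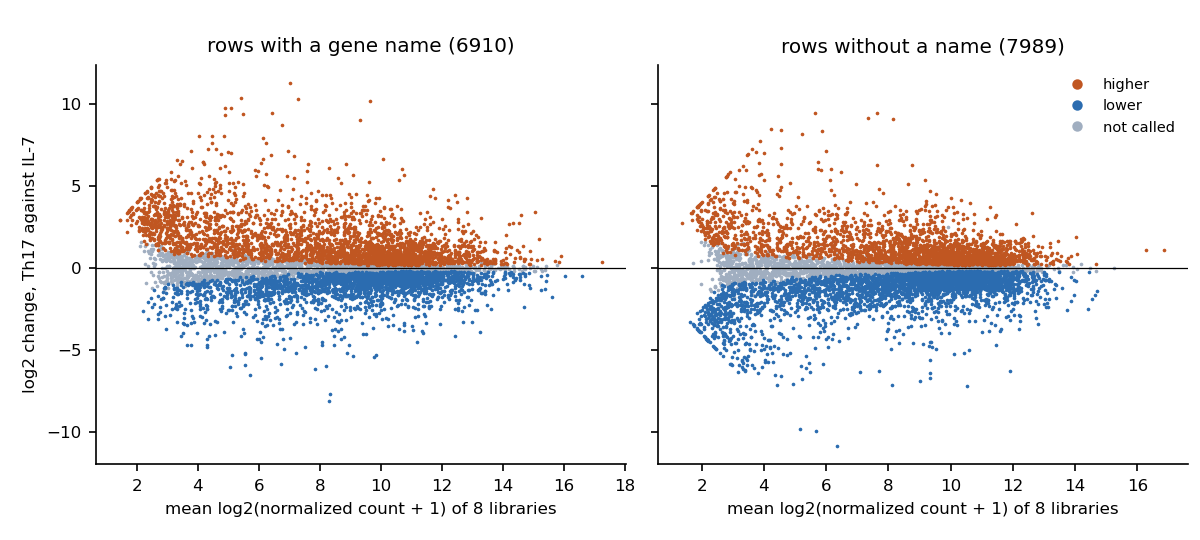
Log2 change of Th17 against IL-7 libraries over the mean log2(normalized count + 1) of 8 libraries, 1 point per row, for the 6910 rows with a gene name (left) and the 7989 without (right). Points are coloured by call, and falls at low level are more frequent among rows without a name.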

How the data were processed

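Poly(A) RNA of 8 libraries was analysed, 4 per group. Per the submitters' processing notes, the authors used Trim Galore 0.4.4, STAR 2.6, featureCounts, DESeq2 and edgeR with the build NCBIM37. The deposited table holds normalized counts per gene whose decimal points had been lost. It also gives, for the authors' comparison of Sin3A-deficient with sufficient Th17 cells, a deposited mean normalized count (the signal behind their comparison) and a deposited log2 fold change with its error. These served to join gene names to rows, by agreement within 1e-06. The fold change also bore on how the Th17 values of joined rows were read, and 81 joins rested on a next-best reading. The mean served to drop 7 joins.

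Values were restored as whole reads times the library's step: of the nonzero values, 99.9932% came out whole (relative tolerance 2e-09). A read number divisible by 10 leaves the power of 10 undetermined. It was chosen for each group of 4 by a negative binomial model, and for Th17 values of joined rows also by the authors' fold change. The model's prior for the group mean came from the Sin3A-deficient group of the same stage. Of nonzero values in the 8 libraries, 8.67% were raised. Rows under a posterior of 0.95 (0.99 where 3 or 4 values were raised) were left out. In the Th17 group a joined name took the place of this limit, and of the stricter one among the alternatives. So 15212 of 17850 rows were used, and 7654 of 8552 names were joined. Of 1000 false entries 2 were joined. The model takes libraries as independent, and a library that deviates from its group in many genes breaks that assumption.

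Rows with a mean of at least 5 were tested on log2(normalized count + 1) with limma 3.58.1 in R 4.3.3 (trended variance, Benjamini-Hochberg over 14899 rows, adjusted p under 0.05). A difference is on that scale, which understates the change of low genes. The scripts were tested on simulated data. Named genes were the members of the lists and the 12 widest rises and falls by the rule in the report. The members and lists were chosen with earlier results of these data known. Floors and read numbers cover counting error only. Alternatives covered the pseudocount, filters, scaling, the fit, the reading of powers of 10 and left-out libraries. Single values of some genes counted in the lists are not reported here.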

Additional observations from a re-analysis of the deposited data

Results flagged for a closer look

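In 82 groups of 4 libraries, 7 had 1 library apart from the other 3 by more than the 95% limit of Dixon's test allows on the log2 scale. Chance alone passes this limit in about 1 group in 20. Of the 7, 5 were BASAL960 in the IL-7 group. Cd5l was at 3.38 normalized counts there and at 0 in the other 3 libraries. Nfkbiz was at 2140.4 against 1669 to 1739. Pyhin1 was at 7914 against 4496 to 4794, and Samd9l at 9698 against 4615 to 5238. Tlr12 was at 333 against 546 to 591. In the same group Il17a was at 0 in BASAL959 against 3.12 to 4.30. In the Th17 group Mt1 was at 19319.5 in D3960 against 12999 to 13319.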

How the results depend on the processing

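The counts over all rows kept within 1.5 times in all alternatives except those that test fewer rows. With a mean of at least 50 there were 1916 rows higher by 2-fold or more. With rows holding no raised value, 2703 were higher and 2785 lower, 1720 and 1600 of them by 2-fold or more, 138 and 71 list members were higher and lower, 15 of the 24 widest changes could be tested, and 16 rows appeared. With named rows only, 2798 were higher and 2252 lower, 1719 and 1070 of them by 2-fold or more. With a stricter posterior limit for the reading of a row, chosen after seeing the data, 1721 and 1801 were higher and lower by 2-fold or more, and 14 of the widest changes could be tested. With 0 reads as the limit for absence 8 rows appeared and 1 disappeared, and with 200 normalized counts as the limit for presence 10 and 3. A fit with voom weights, also chosen later, moved none of these counts past 1.5 times.

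The medians of 23 of 44 lists moved by more than the spread between libraries or changed sign in an alternative, and 5 changed sign. The follicular helper median went from -0.44 to 0.081 over all rows, settled or not, and with the stricter limit. The cytokine receptor median went from -0.36 to 0.12 over all rows, settled or not. The citrate cycle median, 0.012, was -0.0099 with no raised value and ran from -0.028 to 0.022 with libraries left out. The Polycomb median, -0.05, ran from -0.14 to 0.078 with libraries left out. The CD8 marker median went from -0.81 to 0.012 with no raised value. The cause was not tested. With libraries left out, rows higher ran from 4557 to 5434 and rows lower from 4847 to 5713. Of 479 called genes in lists or among the widest changes 423 kept their call in every alternative run, and 0 reversed.

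With the replicate block 5229 rows were higher and 5537 lower, and Smc4 was called lower. Same-number deviations correlated at 0.10, 0.03, 0.09 and 0.07. All 4 were positive, but only that of BASAL955 with D3955 (0.103) exceeded 0.1, the limit set for pairing. BASAL957 correlated at 0.038 with D3955 and 0.032 with D3957. The number goes with the sex of the animal in the labels, which do not say that it marks an animal, so the numbers were not taken as pairs. The planned edgeR and DESeq2 fits were not run, because the deposited unit is not counts. Depth limits genes near 0 reads, whose fitted changes depend on the pseudocount. A value read 10 times too small, as is possible for Ccnb2 in BASAL960, would not be seen by the alternative without raised values.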
